A study of Mus musculus with 36 samples.

Results

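Sacubitril/valsartan was compared with vehicle in the ligated left carotid artery of C57BL/6 mice that were dosed only after the injury was established. The comparison was chosen by strain, regimen and treatment: the 3 sacubitril/valsartan libraries (Sac/val, 60 mg/kg/day) and the 3 vehicle libraries (2 mL/kg/day) of the Therapeutic regimen in C57BL/6, 6 of the 36 libraries of the study, across 18628 genes tested of 49568 symbols counted. Both groups underwent carotid ligation, an operation that stops flow in the vessel and is followed by remodelling of its wall. Dosing began 7 days after ligation and lasted 7 days, and arteries were collected 14 days after ligation. All groups shared the ligation, so no library here shows the unligated vessel. The rest of the study covered 129X1/SvJ mice, a Prophylactic regimen of 16 days that began 2 days before ligation, and valsartan alone at 27 mg/kg/day, with 3 mice per group by the protocol. Ages of the animals are not given in the sources used here. Each library was made from the tissue of 1 mouse, so the spread within a group is a spread between animals and dissections.

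Sacubitril is a prodrug whose active form inhibits neprilysin, a membrane peptidase encoded by Mme that cleaves natriuretic peptides, adrenomedullin, bradykinin, endothelin and other vasoactive peptides. Natriuretic peptides act on the receptor guanylyl cyclases encoded by Npr1 and Npr2 and raise cyclic GMP, while the receptor encoded by Npr3 removes them from the circulation. Valsartan blocks the type 1 angiotensin receptor, whose main mouse form is encoded by Agtr1a and through which angiotensin II contracts vessels and drives growth of the wall. Neither drug needs to alter the transcripts of its own target in order to act.

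The promoter windows of Mme, of Npr1 and of Adamtsl2 are shown because Mme and Npr1 encode the drug's target and a receptor of its substrates, and because Adamtsl2 was among the genes with the smallest p and libraries that did not overlap. Each run covers the 250 bases before a RefSeq transcription start on GRCm38.p6, written 5′ to 3′ on the gene's strand. For Mme 3 starts are listed and the third, the farthest downstream, is shown; it was picked with the motif counts known. Capitals mark matches, searched on both strands, to 4 short motifs. The AP-1 motif, spelled TGANTCA, is found in 6.75 percent of the same windows of 32851 RefSeq promoters. The GC box, spelled GGGCGG, is found in 32.7 percent. The box with the letters CCAAT is found in 33.8 percent of those windows, and the TATA box, spelled TATAAA, in 12.4 percent.
Mme, chr3:63295845-63296094, plus strand: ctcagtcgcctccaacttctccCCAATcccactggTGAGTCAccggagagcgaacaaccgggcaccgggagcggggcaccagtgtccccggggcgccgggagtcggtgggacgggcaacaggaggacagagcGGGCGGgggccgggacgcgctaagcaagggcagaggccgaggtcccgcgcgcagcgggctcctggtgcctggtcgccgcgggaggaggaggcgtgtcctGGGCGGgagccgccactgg
Npr1, chr3:90465867-90466116, minus strand: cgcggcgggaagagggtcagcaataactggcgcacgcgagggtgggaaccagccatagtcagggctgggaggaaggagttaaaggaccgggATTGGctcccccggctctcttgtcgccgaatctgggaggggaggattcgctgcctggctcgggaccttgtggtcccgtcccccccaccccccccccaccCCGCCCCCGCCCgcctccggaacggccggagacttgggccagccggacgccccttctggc
Adamtsl2, chr2:27079129-27079378, plus strand: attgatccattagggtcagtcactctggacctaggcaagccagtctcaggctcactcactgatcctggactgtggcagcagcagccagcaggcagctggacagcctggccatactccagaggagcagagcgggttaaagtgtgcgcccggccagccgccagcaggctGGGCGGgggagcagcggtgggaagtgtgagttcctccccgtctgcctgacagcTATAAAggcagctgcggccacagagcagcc
The Mme window shown held 1 AP-1 motif, 2 GC boxes and 1 CCAAT box, while the windows of the other two Mme starts held 0 AP-1 motifs. The Npr1 window held 2 GC boxes and 1 CCAAT box, and the Adamtsl2 window 1 GC box and 1 TATA box. A match is a description of letters and no measurement of binding was made.

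Library totals ran from 20.86 M to 28.97 M counts, and 22570 to 23784 genes were detected per library. Levels are given in CPM, counts scaled to 1 common library size with TMM normalisation factors. Smooth muscle and endothelial transcripts were present in all 6 libraries. Myh11, smooth muscle myosin, was counted at 356, 270 and 206 CPM with Sac/val and at 349, 201 and 242 CPM with vehicle. Pecam1, an endothelial adhesion molecule, was at 232, 226 and 224 CPM with Sac/val and at 262, 172 and 190 CPM with vehicle. Neither gene separated the groups.

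Tissue that borders the carotid artery was present in several libraries, and unequally. Rag1, the recombinase of developing lymphocytes and a thymus marker, was at 5.19, 1.81 and 0.79 CPM with Sac/val and at 1.05, 756 and 126 CPM with vehicle. Tg, thyroglobulin of the thyroid follicle, was at 21.5, 4.07 and 2.62 CPM with Sac/val and at 3.6, 3.88 and 39800 CPM with vehicle. Vehicle replicates 2 and 3 thus carried thymus transcripts and vehicle replicate 3 also thyroid transcripts, at levels far above the other 4 libraries. Acta1, skeletal muscle actin, was at 5360, 21.2 and 1880 CPM with Sac/val and at 3410, 653 and 1640 CPM with vehicle, so Sac/val replicate 2 was nearly free of it. Pth, the parathyroid hormone gene, was at 8460, 0.633 and 382 CPM with Sac/val and at 8.96, 133 and 4900 CPM with vehicle, which put parathyroid transcripts in both groups. Rag1 reached 10 CPM in 16 of the 36 libraries of the study, and Tg in 11. In bulk tissue, fewer cells of a type and less RNA per cell cannot be told apart, and each library is a mixture of wall and surroundings.

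**Figure D1:**
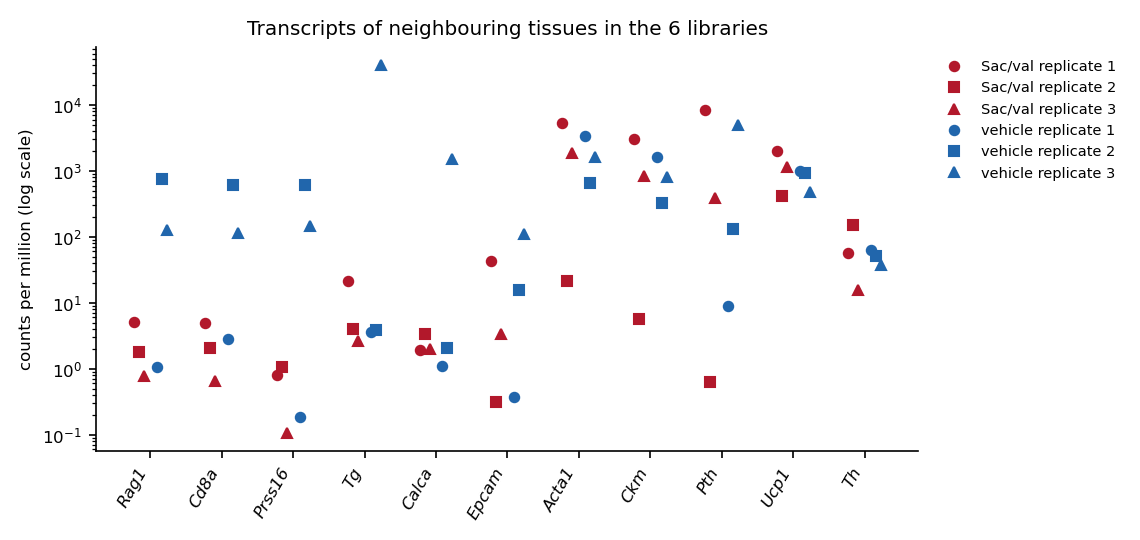
Level in CPM (log scale) of 11 transcripts of neighbouring tissues, 1 point per library, Sac/val in red left of vehicle in blue, with circles, squares and triangles for replicates 1, 2 and 3. Rag1, Cd8a and Prss16 are high in vehicle replicates 2 and 3 (Rag1 at 756 and 126 CPM), Tg and Calca in vehicle replicate 3 (Tg at 39800 CPM), and Acta1 and Ckm are low in Sac/val replicate 2 (Acta1 at 21.2 CPM).

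No gene differed between Sac/val and vehicle arteries at a Benjamini-Hochberg adjusted p below 0.05 in edgeR's quasi-likelihood test (0 of 18628, percent called 0, smallest adjusted p 0.951). The tools did not all give this count. DESeq2's Wald test called 48 genes, 1 higher and 47 lower with Sac/val, and limma voom with sample quality weights called 103, 7 higher and 96 lower. Only 4 genes were called by both, 8.33 percent of the DESeq2 calls and 3.88 percent of the voom calls: Adamtsl2, Esm1, Gipc2 and Gprc5a. Of the 48 DESeq2 calls, 19 had no count in any Sac/val library, and 21 were over 5 times higher in vehicle replicate 3 than in any other library. Of the 103 voom calls, 48 were higher in both vehicle replicates 2 and 3 than in the other 4 libraries. The voom weights were 0.64, 0.48 and 3.95 for Sac/val replicates 1 to 3 and 0.54, 0.46 and 1.69 for the vehicle replicates, so that method leaned on Sac/val replicate 3.

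At an unadjusted p below 0.05, 777 genes were counted, 149 higher with Sac/val (0.800 percent of genes tested) and 628 lower (3.37 percent). Of the 628, vehicle replicate 1 was the highest of the 6 libraries for 42 genes, vehicle replicate 2 for 361 and vehicle replicate 3 for 225, which is 6.69, 57.5 and 35.8 percent. Among the 9123 of all genes whose highest library was a vehicle one, those shares were 22.3, 58.9 and 18.9 percent, so the share of replicate 2 was near that background. Vehicle replicates 2 and 3 both stood above the other 4 libraries for 412 of the 628, 65.6 percent. They did so for 2472 of the 9123 genes highest in a vehicle library, and for 13.3 percent of all genes. Choosing genes as lower with Sac/val raises this share in itself. The library values of the groups did not overlap for 504 genes that were higher (2.71 percent) and 725 that were lower with Sac/val (3.89 percent), and vehicle replicate 2 was the highest library for 568 of the 725, 78.3 percent. The median log2 difference over all genes was 0.01, with 9445 genes positive and 9151 negative. The 95% interval of a log2 difference had a median half-width of 0.76, and of 0.56 over 12419 genes of at least 5 CPM. The standard deviation of the log2 difference between 2 libraries was 0.55 to 1.08 across groups (9 pairs), against 0.63 to 1.10 within Sac/val and 0.75 to 0.99 within vehicle (3 pairs each).

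**Figure D2:**
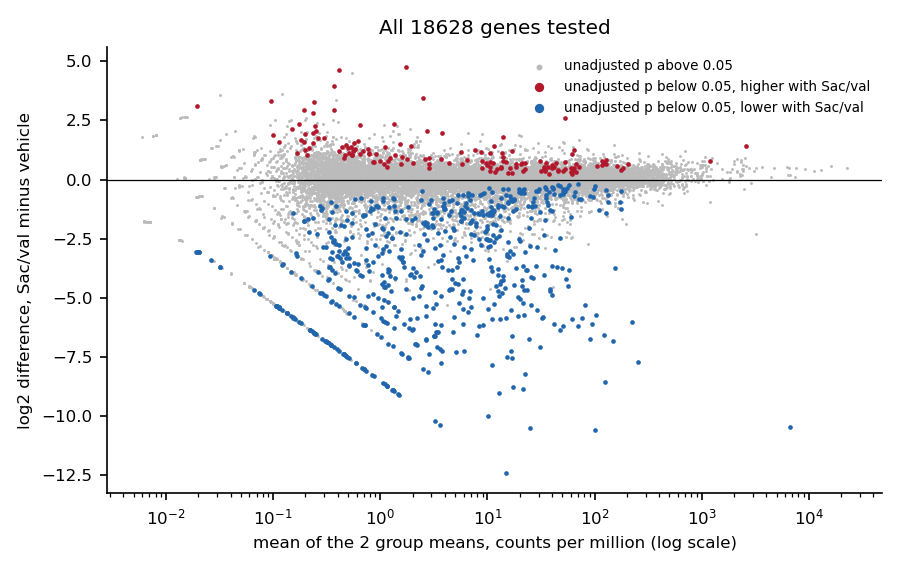
Log2 difference (Sac/val minus vehicle) of each of the 18628 genes tested against the mean of the 2 group means in CPM (log scale). Red and blue points have an unadjusted p below 0.05, 149 above 0 and 628 below it; the diagonal lines are genes with few or no counts in a group, and the lower tail holds genes such as Tg, which was at 39800 CPM in vehicle replicate 3.

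The transcript of the drug's own target, Mme (chromosome 3, 63241537 to 63386030, plus strand, GRCm38), was at 123, 31.1 and 99.2 CPM with Sac/val and at 62.7, 39.4 and 35.8 CPM with vehicle. Sac/val replicates 1 and 3 lay above all vehicle libraries and replicate 2 lay below them. The log2 difference was 0.88 (SE 0.44, 95% interval -0.01 to 1.77, edgeR adjusted p 0.951). It was 1.28 without Sac/val replicate 2 and 0.50 without Sac/val replicate 1. Within the Sac/val group the libraries had the same order for Mme as for Acta1 and for a fat transcript: Adipoq, an adipocyte hormone, was at 923, 427 and 757 CPM with Sac/val and at 804, 317 and 395 CPM with vehicle. Within vehicle the order differed: replicate 1 was highest for each of these genes, but replicate 3 was lowest for Mme and replicate 2 for Acta1 and Adipoq. The part of this tissue content in the Mme values was not tested beyond a fit with 6 tissue scores as covariates (the mean log2 CPM per library of the thymus, thyroid and parathyroid, skeletal muscle, adipocyte, sympathetic and glomus, and Schwann cell lists), in which the log2 difference was 0.46.

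The receptors of the natriuretic peptides gave overlapping values. Npr1 (chromosome 3, 90450591 to 90465866, minus strand) was at 115, 81.8 and 90.7 CPM with Sac/val and at 131, 69.6 and 135 CPM with vehicle, a log2 difference of -0.22 (SE 0.33, adjusted p 0.966 by edgeR). With the 6 tissue scores the log2 difference of Npr1 was -0.59 (unadjusted p 0.01, adjusted p 0.504 by edgeR) and that of Npr3 was 0.01. Npr2, the receptor of C-type natriuretic peptide, was at 95.5, 87.1 and 62 CPM with Sac/val and at 102, 51.5 and 107 CPM with vehicle. Npr3, the clearance receptor (chromosome 15, 11839896 to 11907287, minus strand), was at 34.7, 8.86 and 24.4 CPM with Sac/val and at 26.3, 13.9 and 14.1 CPM with vehicle. Its log2 difference was 0.32 (SE 0.44, edgeR adjusted p 0.96) and turned to -0.12 without Sac/val replicate 1. Sac/val replicate 2 was lowest for Npr3 as for Mme.

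Of the 16 tested genes of the natriuretic peptide and cyclic GMP pathway, 10 were positive and 6 negative, the median log2 difference was 0.03 against 0.01 over all genes, and 0 were called. With the 6 tissue scores the median was -0.43 and 5 of the 16 were lower at an unadjusted p below 0.05, against 5.46 percent of all genes, with 0 calls. Nppc, which encodes C-type natriuretic peptide, was at 0.048, 0.226 and 0.144 CPM with Sac/val and at 0.15, 0.2 and 2.12 CPM with vehicle, where replicate 3 alone was high. Prkg1, the main cyclic GMP-dependent kinase of smooth muscle, was at 3.12, 1.13 and 2.48 CPM with Sac/val and at 1.35, 1.44 and 1.61 CPM with vehicle. Pde5a, the phosphodiesterase that degrades cyclic GMP, was at 26.3, 45.6 and 25.9 CPM with Sac/val and at 45.4, 31.7 and 34.4 CPM with vehicle. The values of the groups overlapped for all 3 of these genes.

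The renin-angiotensin genes gave a median log2 difference of 0.04 over 13 tested members, 7 positive and 6 negative, with 0 called. Agtr1a, the receptor that valsartan blocks (chromosome 13, 30336441 to 30382867, plus strand), was at 13.6, 10.5 and 6.79 CPM with Sac/val and at 11.8, 5.19 and 6.75 CPM with vehicle, a log2 difference of 0.38 (SE 0.36, adjusted p 0.951 by edgeR). Ace, which makes angiotensin II, was at 328, 357 and 259 CPM with Sac/val and at 628, 233 and 282 CPM with vehicle, where replicate 1 was the highest. Agt, the precursor, was at 4.37, 2.35 and 1.33 CPM with Sac/val and at 6.19, 1.72 and 3.73 CPM with vehicle. Agtr2, the type 2 angiotensin receptor that valsartan leaves free, was the only member of this list whose groups did not overlap, 1 of 13 against 2.71 percent of all genes higher and 3.89 percent lower: 1.73, 3.25 and 4.06 CPM with Sac/val against 0.712, 1.12 and 1.65 CPM with vehicle. Its log2 difference was 1.37 (SE 0.79, unadjusted p 0.0928, adjusted p 0.951 by edgeR), at a low level.

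Other peptides that neprilysin cleaves, with their receptors, gave 9 positive and 9 negative differences among 18 tested genes, a median of -0.01 and 0 calls. Edn1, which encodes the vasoconstrictor endothelin, was at 9.07, 9.36 and 7.5 CPM with Sac/val and at 34.4, 12.5 and 9.33 CPM with vehicle. The 3 Sac/val values lay close together and vehicle replicate 1 stood above all other libraries. The log2 difference was -1.12 (SE 0.46, unadjusted p 0.0232, adjusted p 0.951 by edgeR) and -0.33 without vehicle replicate 1. Adm, adrenomedullin, was at 9.12, 11 and 7.04 CPM with Sac/val and at 14.9, 8.39 and 8.57 CPM with vehicle. Calca, which encodes calcitonin and the vasodilator calcitonin gene-related peptide, was at 1.92, 3.39 and 1.97 CPM with Sac/val and at 1.09, 2.04 and 1530 CPM with vehicle. Its 1 high value was in the library with the thyroid transcripts; calcitonin is a product of thyroid C cells.

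**Figure D3:**
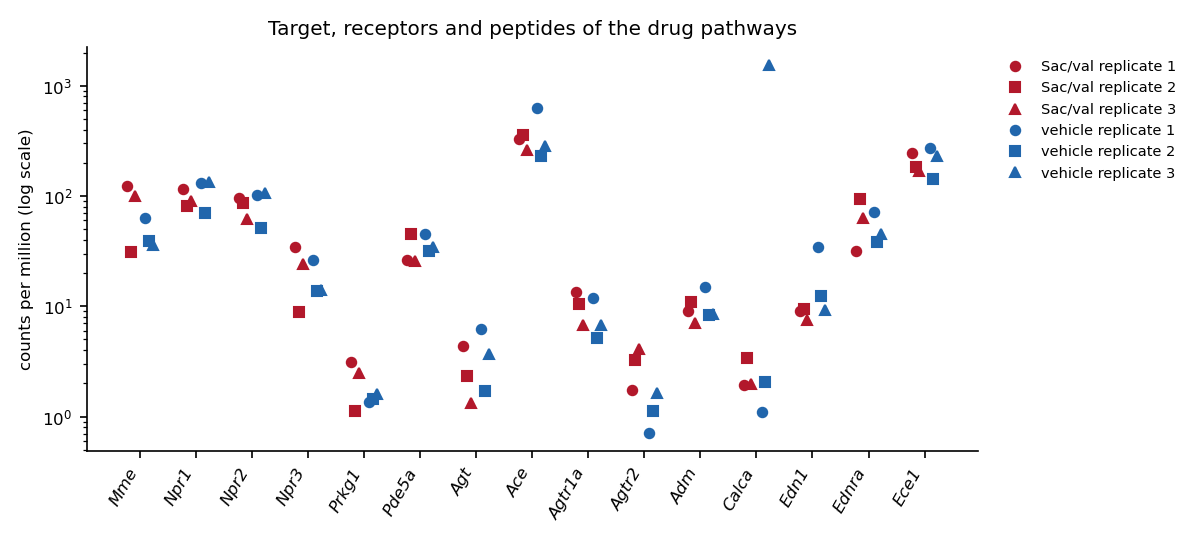
Level in CPM (log scale) of 15 genes of the drug pathways, 1 point per library, Sac/val in red left of vehicle in blue, with circles, squares and triangles for replicates 1, 2 and 3. Agtr2 is the gene shown whose groups do not overlap (1.73 to 4.06 CPM with Sac/val, 0.712 to 1.65 CPM with vehicle); Calca has 1 high value, 1530 CPM in vehicle replicate 3.

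Since no gene passed, the 10 genes with the smallest p in each direction among those of at least 5 CPM were taken by rule, all with an edgeR adjusted p of 0.951. The 10 with higher values differed by log2 0.47 to 1.13. For 7 of them the groups did not overlap, against 2.71 percent of all genes, but their choice by small p in itself favours this. Chst15, a sulfotransferase of chondroitin sulfate chains, was at 55.9, 33.9 and 52.8 CPM with Sac/val and at 33.8, 35.2 and 30.9 CPM with vehicle, a log2 difference of 0.51 (SE 0.17). Enpp2, which encodes autotaxin, the secreted enzyme that makes lysophosphatidic acid, was at 186, 111 and 152 CPM with Sac/val and at 112, 68.6 and 81.7 CPM with vehicle. Btc, a ligand of the epidermal growth factor receptor, was at 16.9, 8.63 and 8.83 CPM with Sac/val and at 7.39, 4.87 and 7.47 CPM with vehicle, with no overlap. Dcun1d3, which acts in the neddylation of cullins, was at 64.8, 34.5 and 33.2 CPM with Sac/val and at 28.2, 25.2 and 26.9 CPM with vehicle. Sac/val replicate 1 was the highest library for each of these 4 genes, and for all 10. Without it the log2 differences of Chst15, Enpp2, Btc and Dcun1d3 went from 0.51, 0.77, 0.80 and 0.72 to 0.38, 0.59, 0.41 and 0.34.

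The other 6 were Trim67, Blcap, Rnf144a, Tmeff1, Shroom4 and Cyp4v3. Cyp4v3, a cytochrome P450 that hydroxylates fatty acids, was at 60.4, 43.9 and 57 CPM with Sac/val and at 38.8, 30.7 and 31 CPM with vehicle. Rnf144a, a ubiquitin ligase, was at 48.8, 35.6 and 45.9 CPM with Sac/val and at 29.4, 33.4 and 28.2 CPM with vehicle. Sac/val replicate 2, the library lowest in muscle transcripts, was also the lowest of the Sac/val libraries for both genes. Limma voom with quality weights called Chst15 (adjusted p 0.0295) and Cyp4v3 (adjusted p 0.0384), which edgeR and DESeq2 did not.

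Among the 10 with lower values, Gprc5a, a retinoic acid-induced receptor of epithelia, had the smallest p of all genes. It was at 2.16, 3.3 and 2.01 CPM with Sac/val and at 8.36, 3.8 and 30.1 CPM with vehicle, without overlap. The log2 difference was -2.50 (SE 0.52, unadjusted p 5.89e-05, adjusted p 0.951 by edgeR) and -1.29 without vehicle replicate 3. Without vehicle replicate 2 it was -2.95 and was the 1 gene called in that fit (adjusted p 0.034 by edgeR). DESeq2 gave an adjusted p of 0.000794 and voom one of 0.0125. The 12 tested airway and gland epithelium genes summed to 244, 71.2 and 124 CPM with Sac/val and to 112, 533 and 458 CPM with vehicle, so epithelial transcripts were high in vehicle replicates 2 and 3, while Gprc5a was high in replicates 1 and 3. Of those 12 genes 3 had no count in any Sac/val library, and their part in the Gprc5a difference was not tested. With the 6 tissue scores, none of which is epithelial, the log2 difference of Gprc5a was -1.56.

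Adamtsl2, a secreted protein that binds fibrillin microfibrils, was at 2.16, 5.7 and 1.76 CPM with Sac/val and at 23, 7.91 and 6.49 CPM with vehicle. Every vehicle library lay above every Sac/val library. The log2 difference was -1.96 (SE 0.51, adjusted p 0.951 by edgeR, 0.0321 by DESeq2 and 0.0125 by voom), and -1.17 without vehicle replicate 1. Kcnj15, an inwardly rectifying potassium channel, was at 6.96, 27.1 and 13.7 CPM with Sac/val and at 48.4, 31.5 and 78.2 CPM with vehicle, also without overlap. Its log2 difference was -1.73 (SE 0.46, adjusted p 0.951 by edgeR, 0.0546 by DESeq2 and 0.0125 by voom). Esm1, an endothelial proteoglycan, was at 3.46, 5.2 and 3.81 CPM with Sac/val and at 24.4, 4.95 and 35.7 CPM with vehicle, where replicate 2 lay among the Sac/val values.

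For the remaining 6, vehicle replicate 3 was the highest library, as it was for Gprc5a, Kcnj15 and Esm1 but not for Adamtsl2. Ager, the receptor of advanced glycation end products, was at 1.97, 3.62 and 2.41 CPM with Sac/val and at 3.26, 6.47 and 224 CPM with vehicle. Cybrd1, a ferric reductase, was at 1.78, 1.99 and 1.47 CPM with Sac/val and at 0.937, 2.52 and 130 CPM with vehicle. Grp, gastrin-releasing peptide, had 1, 3 and 0 counts with Sac/val and 2, 12 and 699 counts with vehicle. Sox9, a transcription factor of cartilage and epithelia, was at 5.04, 7.37 and 4.52 CPM with Sac/val and at 11.5, 6.23 and 30.9 CPM with vehicle. Calml3 and Calca completed the 6. Without vehicle replicate 3 the log2 difference of Cybrd1 was 0.02, that of Ager -0.87, that of Sox9 -0.65 and that of Calml3 -0.56, while Grp kept 2 and 12 counts with vehicle against 1, 3 and 0 with Sac/val, a fitted log2 difference of -2.14.

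**Figure D4:**
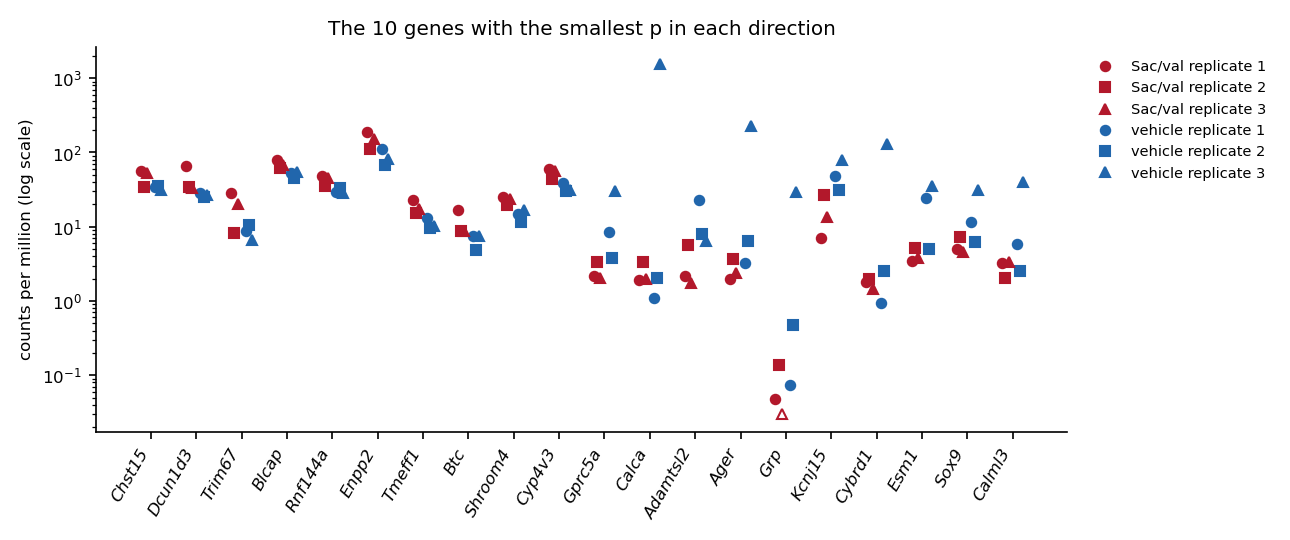
Level in CPM (log scale) of the 20 genes with the smallest p, 10 per direction, 1 point per library, Sac/val in red left of vehicle in blue; circles, squares and triangles are replicates 1, 2 and 3, and the open triangle is a library with 0 counts of Grp drawn at the foot of the axis. Calca, Ager, Grp and Cybrd1 are high in vehicle replicate 3 alone (1530, 224, 29.7 and 130 CPM), while Adamtsl2 and Kcnj15 separate all 3 libraries of each group.

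Hmga2, a chromatin protein of growing mesenchyme, is named after its values were seen; DESeq2 called it and edgeR did not. It was at 0.288, 0.678 and 0.431 CPM with Sac/val and at 10.3, 0.679 and 1.99 CPM with vehicle, where replicate 2 lay barely above the highest Sac/val library. The log2 difference was -3.20 (SE 0.73, adjusted p 0.951 by edgeR and 0.00772 by DESeq2) and -1.51 without vehicle replicate 1. The list members named here, those of the drug pathways other than Mme, Agtr1a, Npr1 and Npr3 included, were also picked after their values were seen.

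The arterial wall lists lay near 0 in the fit by group alone and below 0 once 6 tissue scores entered as covariates. In the fit by group alone the median log2 difference was -0.11 over 15 contractile smooth muscle genes, 0.25 over 15 endothelial genes, 0.03 over 15 adventitial fibroblast genes and 0.20 over 20 genes of fibrillar and neointimal matrix, with 0 calls in each. Over all genes the median was 0.01 in that fit. Without vehicle replicate 1 the medians of these lists were 0.26, 0.50, 0.54 and 0.70, in the same order, against 0.02 over all genes. With all libraries and the 6 tissue scores they were -0.77, -0.23, -0.78 and -0.79, against 0.01 over all genes. In that fit 4 of the 15 contractile, 3 of the 15 endothelial, 5 of the 15 adventitial and 6 of the 20 matrix genes were lower at an unadjusted p below 0.05, against 5.46 percent of all genes, and 0 genes passed (smallest adjusted p 0.192 by edgeR). Acta2, smooth muscle actin, was at 603, 880 and 332 CPM with Sac/val and at 1390, 564 and 573 CPM with vehicle. Col3a1, a collagen of the fibrillar matrix, was at 5660, 19700 and 12600 CPM with Sac/val and at 15700, 6920 and 6720 CPM with vehicle. Sac/val replicate 1 was the lowest library for 17 of the 20 fibrillar matrix genes, and vehicle replicate 1 was the highest for 8 of them. The summed level of that list was 18900, 62500 and 37600 CPM with Sac/val and 55600, 23600 and 23900 CPM with vehicle, so animals within a group differed more than the group means did.

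The elastic fibre list had 12 of 14 differences below 0, a median of -0.29 and 0 calls. Eln, elastin, was at 410, 2260 and 543 CPM with Sac/val and at 12300, 2620 and 1160 CPM with vehicle. Vehicle replicate 1 was far above the rest, and it was the highest library for 13 of the 14 list members. The log2 difference of Eln was -2.32 (SE 1.13, unadjusted p 0.0511, adjusted p 0.951 by edgeR), and -0.82 without vehicle replicate 1. The median of the list was 0.24 without that library. With the 6 tissue scores it was -1.16, and 12 of the 14 members were lower at an unadjusted p below 0.05, against 5.46 percent of all genes, with 0 calls. The log2 difference of Eln was then -3.32 (adjusted p 0.523 by edgeR). Tnfrsf11b, osteoprotegerin, was at 6.05, 18.9 and 8.15 CPM with Sac/val and at 142, 17.8 and 10.2 CPM with vehicle, and its log2 difference of -2.36 (SE 0.85) was -0.34 without vehicle replicate 1 and -3.12 with the 6 tissue scores. Vcam1, a leukocyte adhesion molecule of activated endothelium and smooth muscle, was at 51.7, 139 and 85.4 CPM with Sac/val and at 312, 132 and 84.8 CPM with vehicle. Fosb, an immediate early transcription factor, was at 9.89, 12.3 and 6.43 CPM with Sac/val and at 97.8, 9.27 and 10.3 CPM with vehicle. For Vcam1 and Fosb the log2 differences of -0.94 and -2.03 were -0.24 and -0.03 without vehicle replicate 1, and -1.17 and -2.50 with the 6 tissue scores.

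Macrophage genes gave 15 of 18 differences above 0, a median of 0.20 and 0 calls. With the 6 tissue scores these genes had a median of -0.41, against 0.01 over all genes. Their summed level was 1480, 4070 and 4820 CPM with Sac/val and 2400, 2560 and 2210 CPM with vehicle, so 2 Sac/val libraries were above and 1 below all vehicle libraries. Spp1, osteopontin, which both foamy macrophages and modulated smooth muscle make, was at 232, 2300 and 2310 CPM with Sac/val and at 633, 1180 and 789 CPM with vehicle. Its log2 difference was 0.90 (SE 1.11, adjusted p 0.954 by edgeR). Il1b, a cytokine of activated myeloid cells, was at 6.29, 124 and 80.8 CPM with Sac/val and at 17.6, 37 and 35 CPM with vehicle. S100a8, a calcium-binding protein of neutrophils, was at 7.92, 124 and 69.1 CPM with Sac/val and at 4.05, 35.8 and 38 CPM with vehicle. These 3 genes shared 1 pattern, with replicates 2 and 3 of Sac/val high and replicate 1 low. The neutrophil list as a whole had 7 positive and 5 negative differences, with a median of 0.62 and 0 calls. The list of cytokines, chemokines and adhesion genes had 14 positive and 9 negative differences, with a median of 0.08 and 0 calls. With the 6 tissue scores the medians of these 2 lists were -0.17 and -0.54.

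Lymphocyte and proliferation lists had the most negative medians outside the neighbouring organs. The T and NK cell list had a median of -5.41 over 16 genes, with 0 calls. Of these, 12 were lower at an unadjusted p below 0.05 by edgeR, against 3.37 percent of all genes. Cd3e, a subunit of the T cell receptor complex, was at 1.39, 1.45 and 0.898 CPM with Sac/val and at 1.05, 140 and 29.9 CPM with vehicle. The cell cycle list had 20 of 20 differences below 0 and a median of -1.74, and Mki67, a proliferation antigen, was at 5.43, 33.4 and 21.4 CPM with Sac/val and at 25.5, 218 and 45.5 CPM with vehicle. Vehicle replicate 2, highest for Rag1, was the highest library for all 20 cell cycle genes and for 14 of the 16 T and NK cell genes. With vehicle replicate 1 as the only vehicle library, the medians were -0.09 for the T and NK cell list and -0.35 for the cell cycle list. The thymus list had the same pattern: its median was -6.76 over 12 genes and 0.59 with vehicle replicate 1 alone, its summed level was 83.7 to 213 CPM with Sac/val and 152 to 2510 CPM with vehicle, and none of its members was without counts in either group. The thyroid and parathyroid list had a median of -8.92 over 12 genes, with 1 member at 0 counts in all Sac/val libraries, and of -0.05 without vehicle replicate 3. The median stayed at -8.92 with that member set to a floor of 3 counts per group.

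Lists of oxidative tissue lay above 0. Mitochondrial respiration had 20 of 20 differences above 0 and a median of 0.48, fatty acid oxidation 15 of 16 and 0.74, brown fat 11 of 12 and 0.64, and adipocyte genes 13 of 15 and 0.50, with 0 calls. Sac/val replicate 1 was the highest library and Sac/val replicate 2 the lowest for all 20 mitochondrial genes. Ucp1, the uncoupling protein of brown fat, was at 1980, 410 and 1130 CPM with Sac/val and at 986, 940 and 472 CPM with vehicle. Fabp3, a fatty acid carrier, was at 165, 24.5 and 81.2 CPM with Sac/val and at 47.8, 38.4 and 27.9 CPM with vehicle, a log2 difference of 1.25 (SE 0.60) that was 0.48 without Sac/val replicate 1 and 1.70 without Sac/val replicate 2. Ppara, the nuclear receptor that drives fatty acid oxidation, was at 41.8, 2.85 and 51.3 CPM with Sac/val and at 8.32, 14.4 and 3.86 CPM with vehicle. The skeletal muscle list was also lowest in Sac/val replicate 2. Its summed levels were 103 to 33600 CPM with Sac/val and 3750 to 16800 CPM with vehicle. The part of that list in these differences was not tested apart from the 6 tissue scores. With those scores the medians were 0.20 for fatty acid oxidation, 0.17 for mitochondrial respiration and 0.05 for brown fat. The adipocyte median, whose list is 1 of the 6 scores, was 0.06.

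The Schwann cell and myelin list had the most members higher without overlap among the 41 lists. Of its 15 genes, 14 were above 0, the median was 0.40, and 6 had groups that did not overlap, against 2.71 percent of all genes. Ncmap, a myelin protein of peripheral nerve, was at 19.1, 17.3 and 16.7 CPM with Sac/val and at 9.37, 9.03 and 12 CPM with vehicle, a log2 difference of 0.80 (SE 0.37, adjusted p 0.951 by edgeR). Gldn, which acts at the nodes of peripheral nerve, was at 35.9, 23.7 and 23 CPM with Sac/val and at 18, 16.4 and 16 CPM with vehicle, a log2 difference of 0.71 (SE 0.31, adjusted p 0.951 by edgeR). All 3 Sac/val libraries lay above all vehicle libraries for Ncmap and for Gldn, with Sac/val replicate 1 the highest for both. Over the 15 genes of the list, Sac/val replicate 2 was the highest library for 10 and Sac/val replicate 1 for 4. Vehicle replicate 2, rich in thymus transcripts, was the lowest library for 10 of the 15. With the 6 tissue scores, 1 of which is this list's own, the list median was 0.02. The log2 differences of Ncmap and Gldn were then 0.26 and 0.22. Genes of sympathetic neurons and glomus cells, which lie beside the vessel, had 16 of 17 differences above 0 and a median of 0.36, with Sac/val replicate 2 the highest library for 15 of them and Sac/val replicate 3 the lowest for 13.

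Clock genes had 13 of 19 differences above 0 and a median of 0.21, with 0 calls. Per2, a repressor of the circadian loop, was at 84.3, 56.3 and 61.1 CPM with Sac/val and at 39.5, 23.6 and 55.7 CPM with vehicle, without overlap. Its log2 difference was 0.76 (SE 0.32, unadjusted p 0.0232, adjusted p 0.951 by edgeR). The hour of collection is not given in the sources used here. The cartilage gene Col2a1 was at 1.06, 4.16 and 2.15 CPM with Sac/val and at 27.2, 20.2 and 6.02 CPM with vehicle, without overlap, a log2 difference of -2.86 (SE 1.06, adjusted p 0.951 by edgeR). The 41 lists held 613 tested genes of 627 listed, and 0 of the list entries passed.

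**Figure D5:**
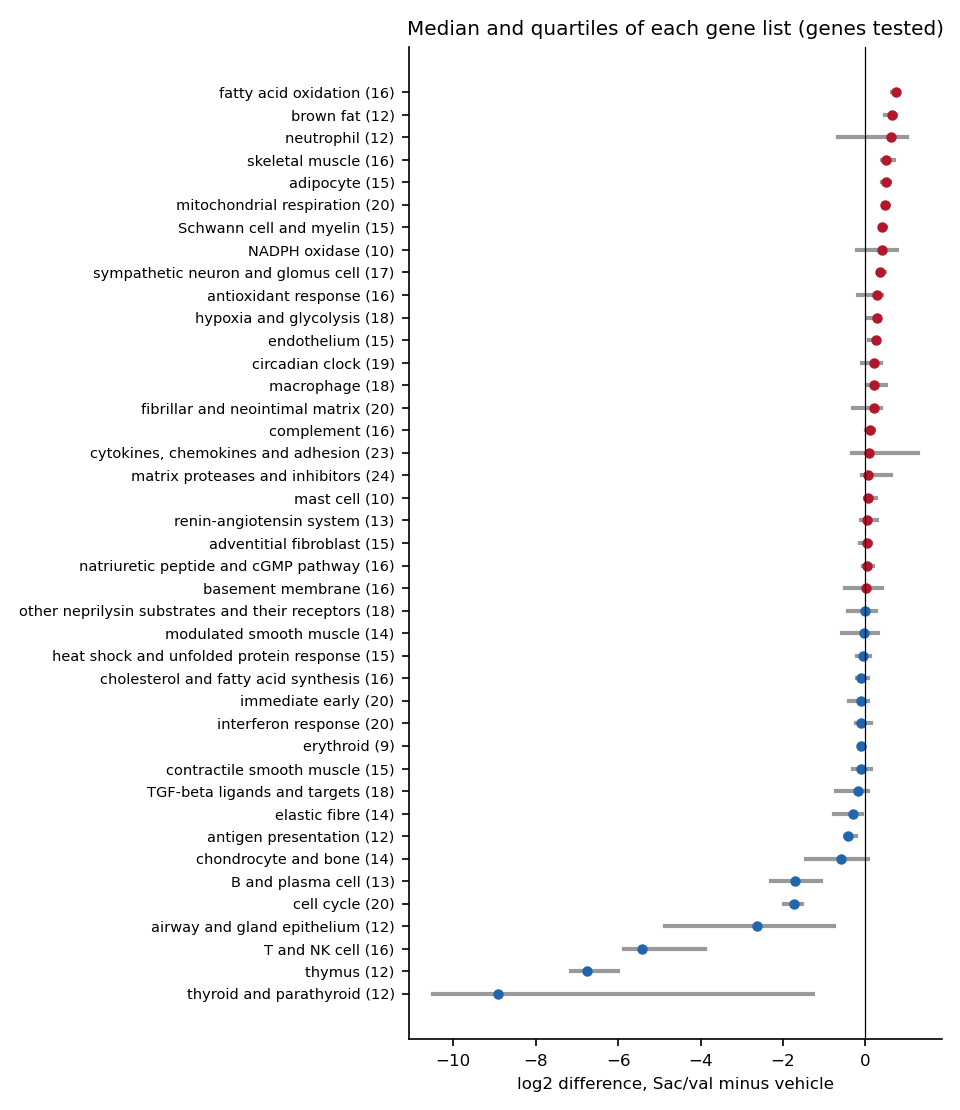
Median log2 difference (Sac/val minus vehicle) of 41 gene lists, with a grey bar for the quartiles of the members and the number of genes tested in brackets; red points are above 0 and blue points below. Medians run from 0.74 for fatty acid oxidation to -8.92 for thyroid and parathyroid, and those of the wall and of the drug pathways lie near 0 in this fit; with 6 tissue scores as covariates, not drawn, the elastic fibre median is -1.16 and that of the natriuretic peptide and cyclic GMP genes -0.43.

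Whether the drug difference depended on the regimen was tested as the Therapeutic minus the Prophylactic difference in C57BL/6. The regimens differ in the start of dosing and in its length (7 and 16 days), which this contrast cannot tell apart. In edgeR, 0 of 18628 genes passed (percent called 0), 322 had an unadjusted p below 0.05, DESeq2 called 23 and voom with quality weights 1. The difference of the same contrast between C57BL/6 and 129X1/SvJ under the Therapeutic regimen also gave 0 genes in edgeR (percent called 0), with 511 at an unadjusted p below 0.05. There the tools parted most: DESeq2 called 14 genes and voom with quality weights 1603, 582 above 0 and 1021 below. Mme differed by 0.79 (SE 0.61) between the regimens and by 0.98 (SE 0.61) between the strains, with edgeR adjusted p of 1 and 0.996. Its log2 difference was 0.09 in C57BL/6 Prophylactic and -0.10 in 129X1/SvJ Therapeutic mice, against 0.88 here.

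The 20 genes of smallest p were looked up in the other groups of mice, which share no library with this comparison. Of the 10 with higher values, 4 were above 0 in C57BL/6 Prophylactic, 2 in 129X1/SvJ Therapeutic and 1 in 129X1/SvJ Prophylactic mice. Of the 10 with lower values, 6 were below 0 in C57BL/6 Prophylactic, 2 in 129X1/SvJ Therapeutic and 4 in 129X1/SvJ Prophylactic mice. The median of the higher 10 was 0.70 here, against -0.01, -0.10 and -0.21 in those groups in that order, and the median of the lower 10 was -2.50 here, against -0.37, 0.17 and 0.12. The log2 difference of Adamtsl2 was -0.47 in C57BL/6 Prophylactic, 0.13 in 129X1/SvJ Therapeutic and 0.98 in 129X1/SvJ Prophylactic mice.

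Sac/val was also set against valsartan alone, the same receptor blocker without the neprilysin inhibitor. In edgeR 0 genes passed (percent called 0, smallest adjusted p 0.775), 801 had an unadjusted p below 0.05, DESeq2 called 19 and voom with quality weights 3. Valsartan minus vehicle likewise gave 0 genes in edgeR, with 252 at an unadjusted p below 0.05. Neighbouring tissue differed here too. For Sac/val minus valsartan the list medians were -6.84 for thymus, -5.76 for thyroid and parathyroid and 1.82 for skeletal muscle. For valsartan minus vehicle they were 0.03, -3.04 and -1.35. With the 6 tissue scores, 169 genes had an unadjusted p below 0.05 by edgeR for Sac/val minus valsartan. The comparisons share libraries, so their values are given side by side. Mme differed by 0.94 (SE 0.44, edgeR adjusted p 0.775) between Sac/val and valsartan and by -0.06 (SE 0.43, edgeR adjusted p 1) between valsartan and vehicle. Adamtsl2 differed by -0.75 (SE 0.50) and -1.22 (SE 0.50), Gprc5a by -0.71 (SE 0.50) and -1.78 (SE 0.51), and Kcnj15 by -1.55 (SE 0.46) and -0.17 (SE 0.45), in the same order.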

How the data were processed

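RNA of 36 ligated left carotid arteries was sequenced from Illumina TruSeq Stranded mRNA libraries, per the labels' protocols. The authors deposited raw counts per gene symbol. Trimmomatic 0.36, STAR 2.5.2b, Subread 1.5.0p3 with featureCounts and GRCm38 are named per the submitters' processing notes. The annotation release and the strand setting of the counting are not given in the sources used here, so reads of overlapping or antisense genes may not be told apart. The files' columns left unmapped to a sample numbered 0. From the deposited counts, edgeR 4.0.16 in R 4.3.3 fitted all 36 libraries as 12 group means, after filterByExpr and TMM scaling, with the quasi-likelihood test and Benjamini-Hochberg adjustment at 0.05 over 18628 genes (residual degrees of freedom 24, biological coefficient of variation 0.463). CPM are TMM-scaled, and their precision covers counting error only. DESeq2 1.42.0, other scaling, no low-count filter, the libraries of the comparison alone, 6 tissue scores as covariates, a robust prior and leaving out each library were alternatives; vehicle replicate 1 alone and limma 3.58.1 voom with quality weights were added after seeing the data. The genes named are the 10 with the smallest p per direction at a mean of at least 5 CPM, since fewer passed, plus Mme, Agtr1a, Npr1 and Npr3. This rule, the comparison and the 41 lists were chosen with earlier results of these data known. Other named genes were chosen after their values were seen. The fit was tested on simulated data. Coordinates are from the GRCm38 annotation and are 1-based.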

Additional observations from a re-analysis of the deposited data

How the results depend on the processing

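The count of 0 genes for Sac/val minus vehicle was 0 in edgeR with DESeq2's size factors, without the low-count filter, with only the libraries of the comparison, with 6 tissue scores and with a robust prior. It was 48 by DESeq2's Wald test, 103 by limma voom with quality weights and 1 with vehicle replicate 1 alone. That last call, Hmga2, comes from a fit with 1 vehicle library, the one where it was high, and assumes that library varies like those of the other groups. Leaving out 1 library at a time gave 0 to 1 genes. The regimen interaction gave 23 genes by DESeq2 and 1 by voom, the strain interaction 14 and 1603, and Sac/val minus valsartan 19 and 3, against 0 in each edgeR fit, those that left out 1 library included. Genes at an unadjusted p below 0.05 numbered 286 to 3419 across these settings for Sac/val minus vehicle. The sign of the log2 difference turned for Calca (0.63 without vehicle replicate 3, range -8.30 to 0.63 over left-out libraries, and 1.15 with vehicle replicate 1 alone) and for Cybrd1 (0.02, range -5.25 to 0.02, and 0.89). It turned for Agtr1a (-0.06 with 6 tissue scores and -0.20 with vehicle replicate 1 alone) and for Npr3 (-0.12 without Sac/val replicate 1, range -0.12 to 0.70, and -0.22 with vehicle replicate 1 alone). The cause was not tested. No paired analysis was possible because the labels give no replicate numbers that groups share. With 6 tissue scores the medians of the wall lists lay lower, at -0.23 for endothelium and -1.16 for elastic fibre, while that of all genes was 0.01. Some lists outside the wall also moved down: chondrocyte and bone from -0.60 to -1.05, immediate early from -0.10 to -0.61 and complement from 0.11 to -0.57. The macrophage median moved from 0.20 to -0.41. The cell cycle median went the other way, from -1.74 to 0.22.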
